A study of Mus musculus with 11 samples.

Results

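The cytoplasmic ribosomal protein genes of mouse embryonic stem cells (ESCs) were followed through 4 RNA-seq libraries and 4 lists of ChIP-seq peaks. They were taken by symbol: an Rpl or Rps name followed by a number, with an optional closing letter or digit, together with Rplp0, Rplp1, Rplp2 and Rpsa. Kinases of the Rps6k family and pseudogene entries were left out. The rule found 84 genes among the 23288 gene symbols of the expression table, and 83 of them had a position in the mm9 genome (Rpl41 had none). By name, 43 encode large subunit proteins, 30 small subunit proteins, 4 the stalk proteins and Rpsa, and 7 are paralogs of another member (Rpl10l, Rpl22l1, Rpl39l, Rpl3l, Rpl7l1, Rps27l and Rps4y2).

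The cells were the E14Tg2A ESC line, grown without feeder cells in serum with LIF. For RNA-seq they carried either a control short hairpin RNA (shCtl, 2 libraries) or a hairpin against Cbx6 (shCbx6, 2 libraries), delivered by lentivirus, with antibiotic selection; which of the hairpins against Cbx6 each library carried is not given in the labels. For ChIP-seq, an antibody to the HA tag was used in 2 replicates of a line in which endogenous CBX6 carries 3 HA tags at its C-terminus, derived from single cells, and antibodies to CBX7 and RING1B were used in 1 sample each. CBX6 and CBX7 are chromobox proteins, a family of subunits of the canonical Polycomb repressive complex 1 (PRC1), and RING1B is the ubiquitin ligase of that complex. The samples with control antibodies or untagged cells were not analysed here. Nothing states that the libraries of a group came from separate cultures, so the p-values measure only the spread between these libraries, which may be technical.

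Ribosomal proteins assemble with ribosomal RNA into the small and the large subunit of the ribosome. Their genes are active in every dividing cell, and most of their mRNAs begin with a stretch of C and T letters, the 5′ terminal oligopyrimidine tract, which links their translation to growth signals. They are strongly transcribed and are not known as Polycomb targets, so in a ChIP-seq experiment for PRC1 they stand for active promoters, and the comparison asked here is whether the CBX6 lists hold peaks at them.

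The ribosomal protein genes were among the most abundant entries of the table. FPKM is the number of fragments per kilobase of transcript, scaled to the fragments mapped in the library, a level per length. The mean FPKM of the 4 libraries had a median of 1922 over the members. It reached 1000 in 64 members, lay between 100 and 1000 in 14 and was under 100 in 6, and 60 members ranked among the 100 most abundant entries. Together the members made up 19.4% of the summed FPKM in shCtl replicate 1, 23.3% in shCtl replicate 2, 22.1% in shCbx6 replicate 1 and 23.8% in shCbx6 replicate 2. The depth of the libraries is unknown, since the table holds no counts.

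**Figure D1:**
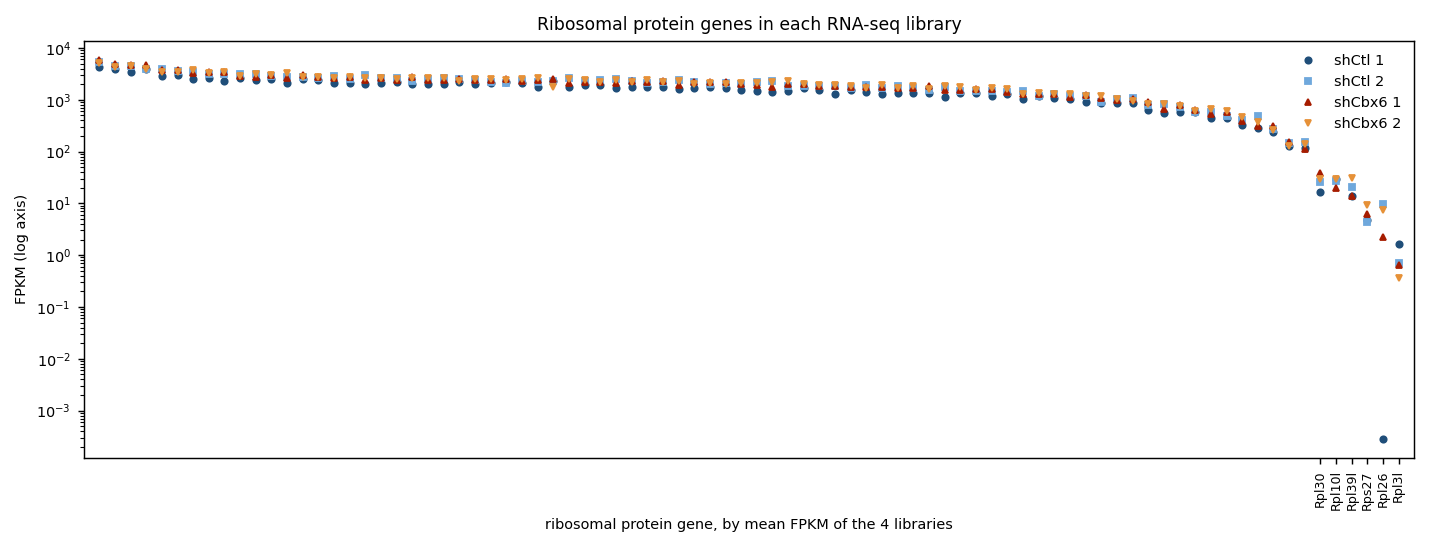
FPKM (log axis) of the 84 ribosomal protein genes in each of the 4 RNA-seq libraries, with genes ordered by the mean of the libraries, 1 symbol per library and names at the 6 lowest genes. Of the members 64 lie at 1000 FPKM or more, the 6 genes at the right are under 100 FPKM, and Rpl26 in shCtl replicate 1 lies far below its other values.

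The most abundant member was Rplp1, which encodes an acidic protein of the ribosomal stalk. Its FPKM was 4357 and 5248 in shCtl, compared with 5929 and 5096 in shCbx6, so that the groups overlapped. Rps18, a protein of the head of the small subunit, followed with 4002 and 4533 in shCtl and 4825 and 4279 in shCbx6. Rpl41, the smallest ribosomal protein, had 3448 and 4383 in shCtl and 4694 and 4421 in shCbx6, both shCbx6 values being the higher ones. Rps12 had 3997 and 3836 in shCtl and 4594 and 3934 in shCbx6, and Rps20 had 2903 and 3838 in shCtl, then 3687 and 3496 in shCbx6. Rplp1 was the highest of these 5 genes in all 4 libraries. In Rps20 the gap between the control libraries was wider than the difference between the groups.

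The other stalk proteins lay lower. Rplp0, the base of the stalk and a common reference gene in quantitative PCR, had 2398 and 3196 FPKM in shCtl and 2805 and 3177 in shCbx6. Rplp2, the partner of Rplp1, had 2089 and 2215 in shCtl and 2402 and 2495 in shCbx6. Rpsa, a small subunit protein that is also known as the laminin receptor precursor, had 1353 and 1486 in shCtl and 1600 and 1533 in shCbx6. Of these 4 genes, Rplp2 and Rpsa had both shCbx6 libraries above both shCtl libraries, with log2 differences of 0.19 and 0.14.

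A few members stood far below the rest. Rpl30, a large subunit protein, was listed at 16.2 and 26.1 FPKM in shCtl and at 39.2 and 29.3 in shCbx6. Rps27, a small subunit protein, was listed at 4.82 and 4.41 in shCtl and at 6.21 and 9.36 in shCbx6. Rpl26, a large subunit protein near the exit tunnel, was listed at 0.000287 in shCtl replicate 1, 9.58 in shCtl replicate 2, 2.24 in shCbx6 replicate 1 and 7.43 in shCbx6 replicate 2. All 3 are core parts of the ribosome. Their coding sequences have 13 (Rpl30), 5 (Rps27) and 6 (Rpl26) further copies of at least 95% identity in the genome. At 99% identity or more there were 5, 2 and 1 in the same order. Reads that fit more than 1 place were discarded before these values were made.

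Such copies are a feature of nearly the whole family. Of 83 members whose coding sequence was searched against mm9, 76 had at least 1 other match of 95% identity or more over 90% of the coding sequence in 1 unbroken alignment. There were 582 such matches in all, with a median of 5 per gene and at most 55 (Rpl21), and 24 of them, at 21 members, were identical to the coding sequence. The number of copies did not follow the level across members (Spearman's rho of 0.14 between copies and mean FPKM, over genes that share libraries). The part of the discarded reads in these levels was not tested.

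The paralogs lay below the genes they are named after. Rpl3l, known from skeletal muscle, had 1.63 and 0.718 FPKM in shCtl and 0.649 and 0.367 in shCbx6, where Rpl3 had 1965 and 2442 in shCtl and 2202 and 2227 in shCbx6. Rpl10l, known from testis, had 29.0 and 27.5 in shCtl and 20.1 and 29.4 in shCbx6, against 2200 and 2083, then 2512 and 2394, for the X-linked Rpl10. Rpl39l, also known from testis, had 13.6 and 20.9 in shCtl and 13.6 and 31.0 in shCbx6, against 1679 and 2501, then 2098 and 2382, for the X-linked Rpl39.

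The exceptions to this order were Rpl22l1 and Rps27l. Rpl22l1 had 285 and 475 FPKM in shCtl and 313 and 377 in shCbx6, and Rpl22 had 237 and 268 in shCtl and 306 and 259 in shCbx6, so that the paralog was the higher of the pair in all 4 libraries. Rps27l, known as a p53 target, had 454 and 592 in shCtl and 539 and 676 in shCbx6, far above the values listed for Rps27. Rpl7l1 had 119 and 151 in shCtl and 114 and 142 in shCbx6, against 2040 and 2514, then 2448 and 2576, for Rpl7.

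No ribosomal protein gene passed the test between shCbx6 and shCtl. All 84 members had a mean of at least 1 FPKM in one of the groups and were tested with limma on log2(FPKM + 1), with p-values adjusted by Benjamini-Hochberg over 11592 genes, of which 11 (0.0949%) were called. At an unadjusted p under 0.05 there were 2 members (Rpl30 and Rps27) and 1352 genes in all. By the ratio of mean FPKM, 2 members were at least 1.5-fold higher in shCbx6 (7.63% of all tested genes were) and 1 was at least 1.5-fold lower (6.56% of all tested genes were). Cbx6 itself, the targeted gene, had 17.4 and 14.9 FPKM in shCtl, then 9.53 and 5.40 in shCbx6.

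The 2 members past 1.5-fold upwards were the low Rpl30 and Rps27 described above. The log2 difference was 0.69 for Rpl30 (SE 0.27, limma adjusted p = 0.419) and 0.62 for Rps27 (SE 0.21, limma adjusted p = 0.355). The next largest differences with both shCbx6 libraries above both shCtl libraries were small. Rps16, a small subunit protein, had 1487 and 1816 FPKM in shCtl and 2020 and 2256 in shCbx6, a log2 difference of 0.38. Rpl28 had 1797 and 2220 in shCtl and 2444 and 2669 in shCbx6, a log2 difference of 0.35, and Rpl37 had 447 and 491 in shCtl and 585 and 612 in shCbx6, also 0.35. The 1 member past 1.5-fold downwards, and the 1 member with both shCbx6 libraries below both shCtl libraries, was Rpl3l (log2 difference -0.50, SE 0.28, limma adjusted p = 0.566), near the limit of the filter.

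The members as a group lay slightly higher in shCbx6. The median log2 difference was 0.15 over the members, -0.01 over all tested genes and 0.06 over the other genes at 100 FPKM or more. Both shCbx6 libraries were above both shCtl libraries in 34 members (18.9% of all tested genes) and below them in 1 (24.4% of all tested genes). By kind, both lay above in 20 of 43 large subunit genes, 12 of 30 small subunit genes, 2 of the 4 stalk proteins and Rpsa, and 0 of 7 paralogs. Under quantile normalization the median over the members was 0.03, and 8 members lay above, compared with 21.1% of all tested genes. Under median-ratio scaling the median was 0.17, and 45 lay above, compared with 23.2%.

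The shift was larger against 1 of the control libraries. shCtl replicate 1 held the lowest value of 75 of the 84 members, compared with 30.1% of the other tested genes. The members were higher in shCtl replicate 2 than in shCtl replicate 1 in 78 of 84 cases, with a median log2 difference of 0.29 between these libraries of the same group, against 0.08 for the other tested genes and 0.19 for the 828 other genes at a mean of 100 FPKM or more. The median difference of shCbx6 replicate 1 from shCtl replicate 1 was 0.29, also with 80 of 84 members higher, while that of shCbx6 replicate 2 from shCtl replicate 2 was 0.04, with 51 of 84 higher, against -0.02 and -0.01 for the other tested genes. Without shCtl replicate 1 the median difference between groups was 0.02 over the members and -0.05 over all genes, with 35 of 83 members above and 23 below, compared with 26.8% and 41.7% of all genes tested that way. Without shCtl replicate 2, 78 members lay above and 1 below, compared with 37.9% and 34.3%. The median difference between groups was smaller than that between the control libraries.

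**Figure D2:**
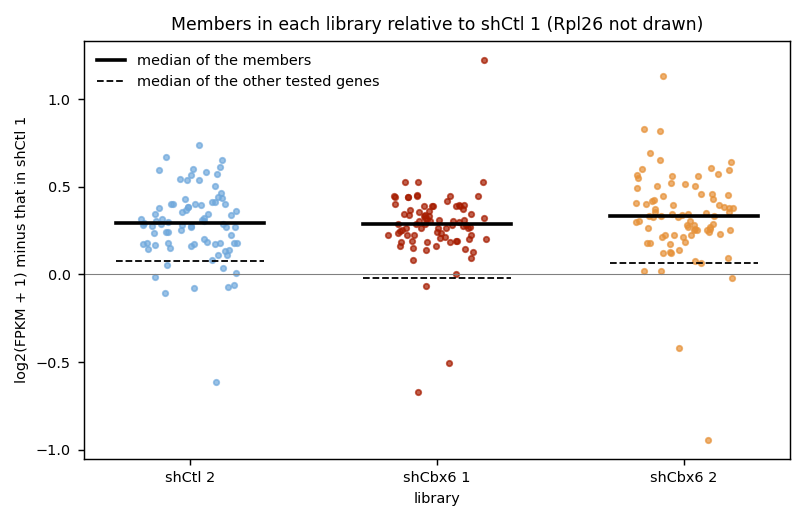
Difference in log2(FPKM + 1) from shCtl replicate 1 for each ribosomal protein gene except Rpl26 (points) in the other 3 libraries, with the median of the members (solid line) and of the other tested genes (dashed line). Rpl26 is not drawn but counts in the medians. The medians of the members are 0.29, 0.29 and 0.34, for shCtl 2, shCbx6 1 and shCbx6 2, and those of the other genes 0.08, -0.02 and 0.07.

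Entries of small RNAs also differed between the libraries. Symbols of snoRNAs, microRNAs and other small RNAs took 22.1% of the summed FPKM in shCtl replicate 1, 12.6% in shCtl replicate 2, 21.4% in shCbx6 replicate 1 and 10.6% in shCbx6 replicate 2. With these entries left out of the sum, an alternative chosen after seeing the data, the share of the members was 24.9%, 26.6%, 28.1% and 26.6% in the same order. The part of the small RNAs in the low values of shCtl replicate 1 was not tested. By transcript length, the median log2 difference between groups was 0.20 over 14 members with transcripts under 500 bases, 0.16 over 22 of 500 to 700, 0.17 over 25 of 700 to 1000 and 0.12 over 22 of 1000 or more.

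Other genes of the translation machinery had no limma call either. The counts of genes with both shCbx6 libraries above or below both shCtl libraries in these lists stand beside 18.9% above and 24.4% below over all tested genes. Of 76 mitochondrial ribosomal protein genes, which build the separate ribosome of the mitochondrion, 6 had both shCbx6 libraries above and 10 below both shCtl libraries, with a median log2 difference of 0.01. Of 56 tested translation initiation factors the counts were 9 and 5 (median 0.06), with Eif4g3 at 5.71 and 6.25 FPKM in shCtl and 10.3 and 12.6 in shCbx6 (limma adjusted p = 0.170). Of 12 elongation factors and other mRNAs with a 5′ terminal oligopyrimidine tract they were 5 and 0 (median 0.15), and of 26 genes of ribosomal RNA processing and ribosome assembly 10 and 2 (median 0.09).

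Among 13 regulators of ribosome production 2 lay above and 1 below (median 0.00). The 1 with an unadjusted p under 0.05 was Mycn, a MYC family factor, at 20.0 and 18.2 FPKM in shCtl and 54.3 and 87.0 in shCbx6 (log2 difference 1.80, SE 0.25, limma adjusted p = 0.103). Of 10 genes of the p53 response, which defects in ribosome assembly are known to trigger, 6 lay above and 0 below (median 0.46), compared with 18.9% and 24.4% of all tested genes. Examples are Plk2, at 2.67 and 2.99 in shCtl and 4.76 and 12.0 in shCbx6, and Ccng1, at 24.5 and 26.7 in shCtl and 33.9 and 53.4 in shCbx6. Of 17 other highly transcribed genes 6 lay above and 1 below (median 0.17), Actb being at 632 and 637 in shCtl and 826 and 1034 in shCbx6. None of these lists holds a gene called by limma.

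The markers of ESCs were present in all libraries, with 9 of 9 tested. Pou5f1 had 1359 and 1452 FPKM in shCtl and 1120 and 1151 in shCbx6. Klf4, the ESC marker with the smallest p, had 91.1 and 96.7 in shCtl and 36.7 and 28.0 in shCbx6 (log2 difference -1.52, SE 0.18, limma adjusted p = 0.0842), and 7 of the 9 had both shCbx6 libraries below both shCtl libraries (24.4% of all tested genes). Of the fibroblast and feeder markers 2 of 8 passed the filter (Vim and Thy1), Lum was listed at 0 in all 4 libraries and Col1a1 did not exceed 0.549. Of the trophectoderm markers 1 of 4 passed, Krt8, at 4.81 and 7.25 in shCtl and 12.1 and 119 in shCbx6. Of the primitive endoderm markers 0 of 4 passed, and of the neuroectoderm markers 4 of 4, with Pax6 at 1.47 and 0.569 in shCtl and 5.51 and 1.82 in shCbx6, and Sox1 at 2.14 and 2.40 in shCtl, then 0.767 and 0.287 in shCbx6. The part of cell state in the values of the ribosomal protein genes was not tested.

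Runs of C and T letters were more frequent at the starts of the members than at those of other genes. Of the 83 members with a position, 32 (38.6%) had an unbroken run of at least 8 C or T letters on the coding strand within 30 bases of the annotated start, compared with 23.0% of 801 other genes at 100 FPKM or more and 22.5% of all genes. The following promoters, from 60 bases before to 20 bases after the start in mm9 (GENCODE annotation), show such runs in capitals. They were chosen for their runs, among abundant members with and without a CBX6 replicate 1 peak.
Rps18: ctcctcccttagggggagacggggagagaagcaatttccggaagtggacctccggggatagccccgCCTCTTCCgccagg
Rps12: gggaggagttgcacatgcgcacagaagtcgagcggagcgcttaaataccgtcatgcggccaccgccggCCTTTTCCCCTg
Rplp1: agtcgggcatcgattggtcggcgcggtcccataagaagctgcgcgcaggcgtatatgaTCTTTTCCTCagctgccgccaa
Rps26: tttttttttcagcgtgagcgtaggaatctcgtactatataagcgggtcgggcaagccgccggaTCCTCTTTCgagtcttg
Rps16: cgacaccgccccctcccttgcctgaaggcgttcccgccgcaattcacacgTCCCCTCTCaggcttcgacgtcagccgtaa

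They lie on the minus strand at chr17:34092643-34092722 (Rps18), chr10:23506996-23507075 (Rps12), chr9:61762326-61762405 (Rplp1) and chr10:128063543-128063622 (Rps26), and on the plus strand at chr7:29135611-29135690 (Rps16). The runs are 8, 11, 10, 9 and 9 letters long. The motif CCGGAA, read on both strands from 200 bases before to 50 after the start, was held by 33 members (39.8%), 29.3% of the other genes at 100 FPKM or more and 16.7% of all genes. The Rps18 promoter printed above holds it. The windows of 250 bases on either side of the start had a median GC content of 59% and a median ratio of observed to expected CpG of 0.859, compared with 0.817 in the other genes at 100 FPKM or more and 0.607 in all genes.

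CBX6 replicate 1 had peaks at most ribosomal protein genes. Counting a peak from 2.5 kb upstream of the start to the transcription end, 65 of 83 members had one (78.3%, 95% Wilson interval 68.3 to 85.8%), compared with 56.9% of all genes. At the caller's own threshold the shares in other genes of like levels were close: 80.6% of 752 genes at 100 to 1000 FPKM in shCtl (77.6 to 83.3%) and 81.6% of 49 genes at 1000 or more (68.6 to 90.02%). Of 11006 genes under 1 FPKM, 34.4% had one. These intervals, which cover counting error only, overlap among the members and both classes of abundant genes. Among peaks with a score of at least 100 the members' share was lower: 34 of 83 members had one (41.0%, 31.0 to 51.7%), compared with 38.2% of all genes, 56.5% of the genes at 100 to 1000 FPKM (52.95 to 60.02%), whose interval does not overlap that of the members, and 65.3% of those at 1000 or more (51.3 to 77.1%).

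CBX6 replicate 2 and the other PRC1 proteins had peaks at few members. CBX6 replicate 2 had a peak at 3 of 83 (3.61%, 1.24 to 10.1%), compared with 16.6% of all genes and 3.86% of the other genes at 100 to 1000 FPKM. CBX7 had one at 2 of 83 (2.41%, 0.663 to 8.37%), compared with 17.9% of all genes and 2.53% of the other genes at 100 to 1000 FPKM. RING1B had one at 1 of 83 (1.20%, 0.213 to 6.51%), compared with 16.1% of all genes and 1.60% of the other genes at 100 to 1000 FPKM. Of the 49 other genes at 1000 FPKM or more, CBX6 replicate 2 had a peak at 1 (2.04%), and CBX7 and RING1B each at 0, with an upper Wilson limit of 7.27%. In these 3 lists the share was highest in genes under 1 FPKM (21.2%, 24.3% and 22.6%), the class where the share of CBX6 replicate 1 was lowest.

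**Figure D3:**
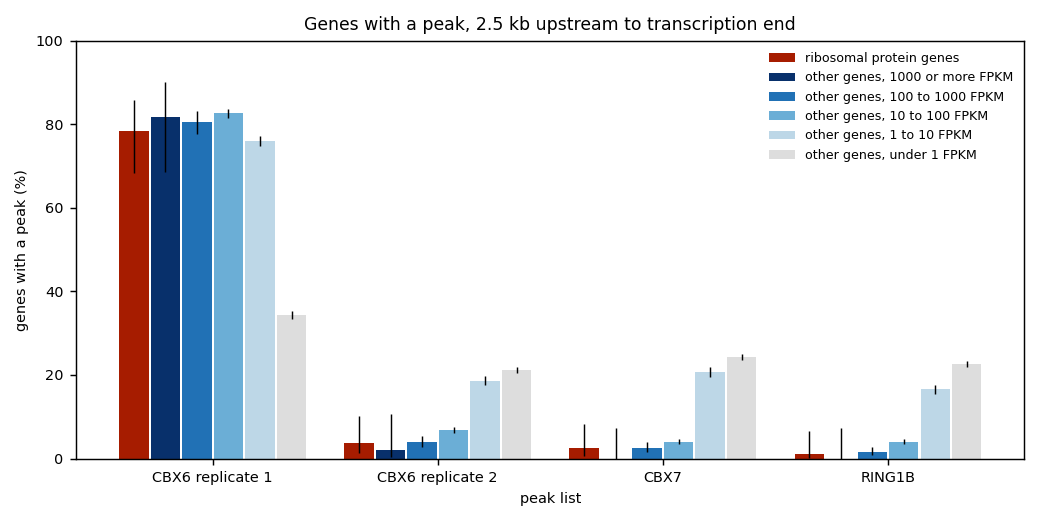
Percent of genes with at least 1 peak from 2.5 kb upstream of the start to the transcription end, in each of the 4 peak lists, for the ribosomal protein genes and for other genes by mean FPKM in shCtl, with 95% Wilson intervals. In CBX6 replicate 1 the members (78.3%) lie with the other transcribed genes and above the genes under 1 FPKM (34.4%), and in the other lists they lie at 1.20% to 3.61%, below the genes under 1 FPKM.

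Near the start the picture was the same. Within 1 kb on either side, CBX6 replicate 1 had a peak at 59 of 83 members (71.1%, 60.6 to 79.7%), compared with 49.5% of all genes, CBX6 replicate 2 at 2 (2.41%, against 13.8%), CBX7 at 1 (1.20%, against 15.3%) and RING1B at 1 (1.20%, against 13.9%). With a score of at least 100, replicate 1 had one at 29 of 83 (34.9%, 25.6 to 45.7%, against 32.4% of all genes). The other genes at 100 to 1000 FPKM were at 51.1% (47.5 to 54.6%), an interval that does not overlap that of the members. Those at 1000 or more were at 57.1% (43.3 to 70.0%). With that score replicate 2 had one in the wider window at 1 of 83 (1.20%, against 11.4% of all genes). The highest peak of replicate 1 covered the member's own start in 54 of the 65 members with a peak. Its centre lay a median of 270 bp from that start, and its median width was 1618 bp. In 13 of the 65 it also covered the start of another gene.

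**Figure D4:**
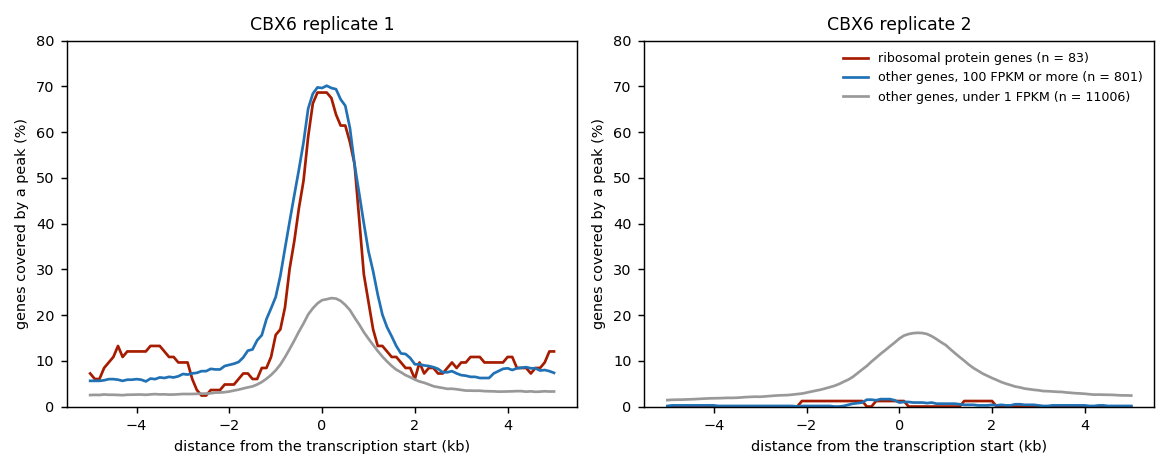
Percent of genes covered by a peak at each distance (kb) from the transcription start, in the 2 CBX6 lists, for the ribosomal protein genes (n = 83), other genes at 100 FPKM or more (n = 801) and other genes under 1 FPKM (n = 11006). In replicate 1 the members rise at the start together with the other abundant genes, above the genes under 1 FPKM, and in replicate 2 the members and the other abundant genes stay near the axis, below the genes under 1 FPKM.

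The peak score of the caller, which cannot be compared between lists, had a median of 101 over the 65 members with a replicate 1 peak, from 51.5 to 380, and was under 100 in 31. Over all genes with a replicate 1 peak the median was 128. It was 132 over the other genes at 100 to 1000 FPKM and 142 over those at 1000 or more. Taken per peak, the median score was 97.8 at the members and 95.3 over the whole list. At the other genes of these classes it was 109 and 129 per peak. Among the highest scores near the start were those of Rps18 (380), Rpl22 (257), Rpl38 (249) and Rps15 (200). Rpl22 is an RNA-binding protein of the large subunit, Rpl38 a large subunit protein known for its part in the translation of Hox mRNAs, and Rps15 a small subunit protein. The score did not follow the level across the 65 members (Spearman's rho 0.07). The peak of Rps18 also covers the start of Vps52, a neighbouring gene 20 bp from its centre.

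The members with peaks in the other lists were 4, and the Rps18 peak was the 1 that covered the member's own start. Rpl7 was the member found in all 4 lists. Its scores were 106 for CBX6 replicate 2, 281 for CBX7 and 160 for RING1B, and all 3 peaks covered the start of Rdh10, a retinol dehydrogenase gene, with centres 359, 303 and 248 bp from that start and 1471, 1415 and 1360 bp from the start of Rpl7. They did not cover the start of Rpl7. Rps18 had a CBX6 replicate 2 peak of score 52.4, centred 184 bp from its start and 89 bp from that of Vps52. Rps2 had a replicate 2 peak of score 72.1, centred 1716 bp from its start, and Rpl12 a CBX7 peak of score 86.8, centred 3327 bp from its start.

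The CBX6 replicates shared few peaks here. Of 78 replicate 1 peaks at members, 3 overlapped a replicate 2 peak (3.85%, 1.32 to 10.7%), 3 a CBX7 peak and 2 a RING1B peak. The share overlapping replicate 2 was 3.18% at other genes of 100 to 1000 FPKM, 44.1% at other genes under 1 FPKM and 18.2% over all 21865 replicate 1 peaks. Replicate 2 holds 5103 peaks, so the lists differ in size.

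The members with no replicate 1 peak were 18, and 12 of them were at 1000 FPKM or more in shCtl. Their median level in shCtl was 1558 FPKM and that of the members with a peak 1849. The 10 most abundant were Rplp1, Rpl23a, Rps29, Rps4x, Rps3a1, Rps26, Rpl10, Rpl39, Rps23 and Rpl36a. Thus Rplp1, the most abundant member of all, had none.

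All 4 X-linked members (Rps4x, Rpl10, Rpl39 and Rpl36a) were among the 18. The split by chromosome was made after the values were seen. On the X chromosome 16 of 179 other genes at 10 FPKM or more had a replicate 1 peak (8.94%, 5.58 to 14.03%), compared with 4830 of 5705 on the autosomes (84.7%, 83.7 to 85.6%). Replicate 1 held 53 peaks on X of 21865 (0.242%), replicate 2 93 of 5103 (1.82%), CBX7 136 of 5081 (2.68%) and RING1B 130 of 4180 (3.11%). Without the X-linked members, replicate 1 had peaks at 82.3% of the others.

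A run of at least 8 C or T letters was held by 28 of the 59 members with a replicate 1 peak near the start (47.5%) and by 4 of the 24 without (16.7%). The motif CCGGAA was held by 26 (44.1%) and 7 (29.2%). This split was made after the values were seen, and Rplp1 and Rps26, whose promoters are printed above, have a run and no peak. The 24 include the 4 X-linked members, and other genes were not split in this way.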

How the data were processed

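The authors aligned paired-end RNA-seq reads to mm9 with TopHat, discarding reads that map to more than 1 region, and computed with Cufflinks the deposited FPKM values of RefSeq transcripts. The authors aligned ChIP-seq reads with Bowtie and ran MACS on each sample separately. The score in the deposited peak lists is that of the caller. Versions are not given in the sources used here, nor is the control of each peak call. Depth is unknown for both data types, and intervals cover counting error only.

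Samples were grouped by their titles. From the FPKM table (23290 entries, and for the 2 repeated symbols the entry with the higher mean), log2(FPKM + 1) was tested with limma 3.58.1 (R 4.3.3, mean-variance trend) over the 11592 genes whose mean reached 1 FPKM in shCtl or in shCbx6, and p-values were adjusted by Benjamini-Hochberg. The difference is on the log2(FPKM + 1) scale, which understates changes of low genes. The procedure was tested on simulated data. Positions came from GENCODE vM1 on NCBIM37 (mm9), with 21149 symbols matched by name and 827 by synonym. A peak counted if it overlapped the window by 1 bp. Copies of coding sequences were searched with blastn 2.17.0, using the transcript numbered 001 where present. Further gene lists covered mitochondrial ribosomal proteins, initiation and elongation factors, ribosome assembly, its regulators, the p53 response, other highly transcribed genes and cell type markers. Named genes were the 5 most and 5 least abundant above 1 FPKM, the 5 largest non-overlapping rises and falls, the stalk proteins and Rpsa, paralogs, the 5 highest replicate 1 scores near the start, members with a peak in another list, the 10 most abundant without a replicate 1 peak, and up to 3 per further list by smallest p; Pou5f1, Lum and Col1a1 are given besides, as defining markers of their cell types. Some items that this rule or these lists include are not reported here. The members and lists were chosen with earlier results of these data known. Alternatives were another pseudocount, filters, normalizations, a replicate block, each library left out, and other peak windows and scores.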

Additional observations from a re-analysis of the deposited data

How the results depend on the processing

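No ribosomal protein gene was called by limma under any alternative that kept all 4 libraries. These were pseudocount 0.1, no filter, at least 1 FPKM in all 4 libraries, quantile normalization, median-ratio scaling, scaling by the summed FPKM of other genes and the replicate block. Each library was also left out, which leaves 1 library in a group, so those fits are read for direction and size only. For Rpl30, Rps27, Rps16, Rpl28, Rpl37 and Rpl3l, the 6 genes refitted one by one, none changed direction in 64 alternatives. With all 4 libraries kept, their lowest limma adjusted p was 0.134 (Rps27 with the replicate block). The median log2 difference of the members stayed positive, from 0.02 without shCtl replicate 1 (0.03 under quantile normalization) to 0.32 without shCtl replicate 2. The difference in their share of the summed FPKM was 1.61 percentage points, from -0.324 without shCtl replicate 1 to 3.54 without shCtl replicate 2. The count of members with both shCbx6 libraries above both shCtl libraries was 34 (18.9% of all tested genes). It fell to 8 under quantile normalization (21.1%) and to 22 under scaling by the other genes (13.8%), and rose to 45 under median-ratio scaling (23.2%). Among the libraries left, the count was 35 without shCtl replicate 1 (26.8%) and 78 without shCtl replicate 2 (37.9%). It was 50 without shCbx6 replicate 1 (42%) and 44 without shCbx6 replicate 2 (26.3%). Rpl3l, the 1 member past 1.5-fold downwards, did not pass the filter where at least 1 FPKM was required in all 4 libraries.

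The replicate numbers are shared between groups but nothing states that they mark a shared culture. The correlation of replicate deviations between the groups was 0.266 over genes, with only 2 pairs. With the replicate block, 0 members were called, the median difference was 0.15, and the calls over all genes went from 11 to 388.

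Requiring a score of at least 100 lowered the replicate 1 share from 78.3% to 41.0% of members (near the start to 34.9%). At that score the shares over all genes were 38.2% and 32.4%. The other genes at 100 to 1000 FPKM were at 56.5% and 51.1%, and those at 1000 or more at 65.3% and 57.1%. The same score lowered the replicate 2 share to 1.20% (11.4% of all genes), and the share of replicate 1 peaks overlapping replicate 2 to 0 of 37. Near the start, the CBX7 and RING1B shares were 0% with the peak centre in the window or with 250 bp on either side, and the RING1B share was 0% without the upstream part. The depth behind the FPKM values and the peaks is unknown, and 2 libraries a group limit the test.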

Other observations

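Introns of ribosomal protein genes host many small nucleolar RNAs, which guide the modification of ribosomal RNA. The table lists 28 snoRNA entries that lie inside 20 of the members, and 25 of them were tested. None was called by limma, 0 had both shCbx6 libraries above both shCtl libraries (18.9% of all tested genes) and 1 had both below (24.4%). Their summed FPKM was 20535 and 8519 in shCtl, then 19447 and 6207 in shCbx6, so that the replicate 1 libraries of both groups were the high ones. Snord100, inside Rps12, had 3420 and 1689 in shCtl and 3903 and 1517 in shCbx6, and Snord34, inside Rpl13a, had 4314 and 775 in shCtl and 4718 and 1218 in shCbx6. Their hosts differed less: Rps12 had 3997 and 3836 in shCtl and 4594 and 3934 in shCbx6, and Rpl13a had 1720 and 2218 in shCtl and 2184 and 2016 in shCbx6. In 9 of the 28 an entry is listed at 0 in at least 1 library.

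In shCbx6 replicate 2 the value of Rpl34 was the lowest and that of the pseudogene entry Rpl34-ps1 the highest of the 4 libraries. Rpl34 had 2334 and 2350 FPKM in shCtl and 2469 and 1741 in shCbx6. Rpl34-ps1 had 13.9 and 309 in shCtl and 295 and 773 in shCbx6, or 0.592%, 11.6%, 10.7% and 30.8% of the pair. The sum was 2348, 2659, 2765 and 2514 in the same order, and the pair was singled out after its values were seen.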
